A study of Mus musculus with 63 samples.

Results

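The 10 genes described here are made largely by the fibroblasts and smooth muscle that lie beneath intestinal crypts: Pdgfra, Pdgfrb, Grem1, Rspo3, Acta2, Myh11, Des, Fap, Thy1 and Vim. They were chosen by symbol, with earlier results of these data known, from the 24766 genes measured by bulk RNA sequencing, and each was found once. The samples were 63 libraries of small intestinal tumours from 2 mice, 1 female and 1 male, so mouse and sex cannot be told apart. Of the tumours, 20 (10 a mouse) had been divided into a larger clone, called major, and a smaller one, called minor, with a library for each. A further 23 tumours, 10 of the female mouse (F1 to F10) and 13 of the male mouse (M1 to M10, M15, M17 and M18), were sequenced undivided. All groups had the same background. The mice (genotype Apchet) carried 1 floxed and 1 intact Apc allele, a Cre recombinase that tamoxifen switches on, and the Confetti reporter, whose fluorescent colours made the clones visible. Cre was driven by the Villin promoter, which is active in epithelium. Recombination was thus directed to epithelium, and a library named for a clone also holds whatever stroma was cut out with it. Tamoxifen (4 mg) was given at 8 weeks of age or more and the mutagen ENU (200 mg per kg) 10 days later. Segments of the small intestine are named SI10, SI20 and SI30 as in the labels. SI30 was represented by tumours F29 and F30 alone, and the major clone of F22 was labelled SI20 and its minor clone SI10.

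Crypt stem cells depend on signals from the mesenchyme around them. Fibroblasts and muscle near the crypt base secrete R-spondins, which amplify Wnt signalling, and antagonists of bone morphogenetic protein (BMP) such as gremlin, which keep differentiation signals away from stem cells, whereas fibroblasts along the villus make BMP ligands. In tumours, fibroblasts lay down collagen, and smooth muscle proteins mark both the muscularis mucosae and contractile myofibroblasts.

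By role, the secreted factors were Grem1 (a BMP antagonist) and Rspo3 (an R-spondin ligand). The receptors and surface proteins were Pdgfra (a platelet-derived growth factor receptor of fibroblasts and telocytes), Pdgfrb (the related receptor of pericytes and other mural cells), Thy1 (a surface glycoprotein of fibroblasts, and in mice also of T cells) and Fap (a protease of activated fibroblasts). Acta2 (smooth muscle actin), Myh11 (smooth muscle myosin heavy chain) and Des (desmin, the intermediate filament of muscle) form the contractile apparatus, and Vim (vimentin) is the intermediate filament of mesenchymal cells in general. In GRCm39 the genes lie at chr2:113576509-113589000 (Grem1), chr10:29327285-29411876 (Rspo3), chr5:75311994-75358876 (Pdgfra), chr9:43954332-43959880 (Thy1), chr2:62331286-62404419 (Fap), chr19:34217737-34232990 (Acta2), chr16:14012399-14109236 (Myh11), chr1:75320511-75345223 (Des) and chr2:13578738-13587639 (Vim). Values are of whole genes, summed over transcripts.

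Promoter windows of RefSeq (GRCm38.p6), taken here as the 250 bases before the gene start, were used for 5 of the 10 genes: Pdgfra, Grem1, Acta2, Des and Vim. Pdgfrb was left out of this search. Those of Acta2, Des and Grem1 are printed because Acta2 and Des varied together across tumours and Grem1 varied most. In Acta2, at chr19:34255374-34255623 on the minus strand, the capitals mark CArG boxes, the element bound by serum response factor in muscle genes, searched as CC, then 6 bases of which at least 5 are A or T, then GG. In Des (chr1:75360042-75360291, plus strand) and Grem1 (chr2:113758649-113758898, minus strand) they mark GGGCGG on either strand, the core of a GC box.
Acta2: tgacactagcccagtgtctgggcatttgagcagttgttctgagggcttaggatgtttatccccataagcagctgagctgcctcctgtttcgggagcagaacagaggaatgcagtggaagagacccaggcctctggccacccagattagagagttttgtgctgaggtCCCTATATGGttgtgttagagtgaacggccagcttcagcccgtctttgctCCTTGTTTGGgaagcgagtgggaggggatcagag
Des: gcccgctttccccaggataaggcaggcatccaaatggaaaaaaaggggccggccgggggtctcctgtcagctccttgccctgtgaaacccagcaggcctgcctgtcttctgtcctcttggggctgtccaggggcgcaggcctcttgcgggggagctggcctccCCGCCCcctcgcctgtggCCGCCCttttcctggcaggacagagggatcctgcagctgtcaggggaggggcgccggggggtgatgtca
Grem1: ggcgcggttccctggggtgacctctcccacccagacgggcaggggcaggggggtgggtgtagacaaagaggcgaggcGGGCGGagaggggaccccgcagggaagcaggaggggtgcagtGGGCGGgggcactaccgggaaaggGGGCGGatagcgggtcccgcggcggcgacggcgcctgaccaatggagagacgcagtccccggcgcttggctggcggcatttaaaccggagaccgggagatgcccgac

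The CArG boxes of Acta2 start 84 and 34 bases before the gene start, and 8.59% of the 32851 RefSeq windows of this length hold at least 1. None was found in the windows of the other 4 genes. GGGCGG occurs 3 times in the window of Grem1 and 2 times in that of Des, and in 32.7% of all windows. The Grem1 window is 72.0% G or C and that of Acta2 53.6%. These matches describe letters and not sites in use.

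Values are normalised counts, which are estimated read counts scaled between libraries by the authors. Library sums ran from 26140227 to 45909885. The low values do not fall on whole multiples of one step, so reads could not be recovered and the depth behind a single value is unknown. The members were measured against a large epithelial background. The 13 epithelial genes summed to a median of 467446 normalised counts in libraries of major clones, 426909 for minor clones and 458698 for undivided tumours, whereas the 38 genes of fibroblast matrix and fibroblast markers summed to 30068, 23749 and 22036. In such bulk samples, fewer cells of a type and less RNA per cell cannot be told apart. Libraries that stood apart in these genes were the undivided tumour F3, both clones of F27, and the undivided tumours M15, M17 and M18.

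The 10 genes spanned a wide range of abundance. Per kilobase of the canonical transcript, the median over 63 libraries was 548 normalised counts for Vim, 226 for Acta2, 125 for Pdgfra, 79.3 for Des, 48.8 for Thy1, 47.0 for Pdgfrb, 27.1 for Myh11, 5.64 for Grem1, 1.40 for Rspo3 and 1.40 for Fap. All but Grem1, Rspo3 and Fap were above 0 in every library. Grem1 was listed at 0 in 12 libraries and Rspo3 and Fap in 6 each. The mean of Fap was under 10 normalised counts in every comparison and that of Rspo3 in comparisons of clones alone, so these were left out of the corresponding tests.

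**Figure D1:**
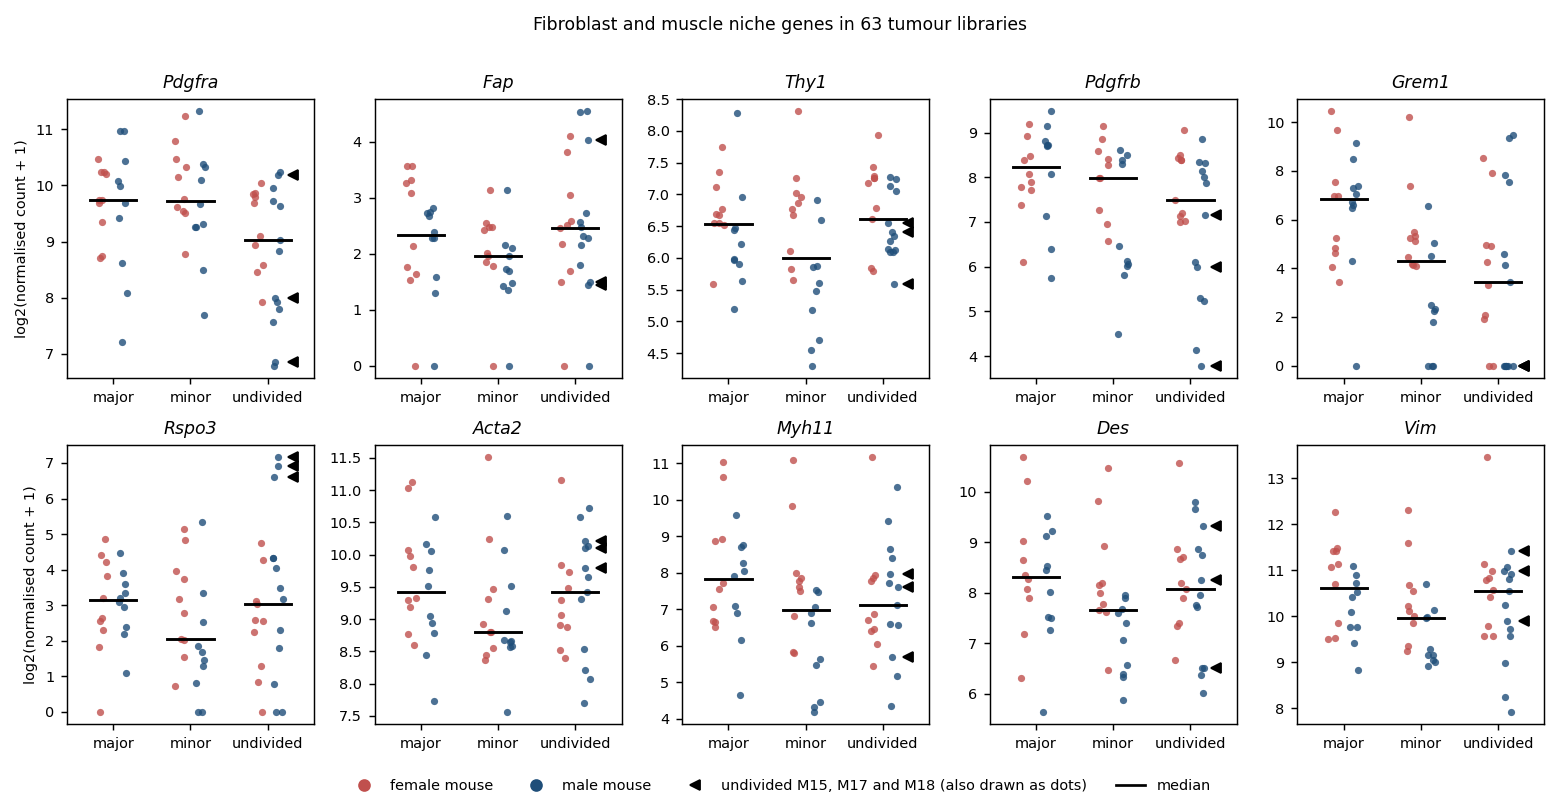
Normalised counts of the 10 genes in 63 libraries (vertical axes, log2 of the value + 1), by group (horizontal axes), 1 dot a library, coloured by mouse, with the median as a bar. The groups overlap for every gene, and the undivided tumours M15, M17 and M18 (triangles) hold the highest Rspo3 values, 96.1 to 142, and Grem1 at 0.

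Grem1 showed the widest spread. Among major clones it ranged from 0 (M19) to 1387 (F27) normalised counts, with a median of 114. Among minor clones the range was 0 to 1179 (F27) and the median 18.97, and undivided tumours ran from 0 to 698 (M6) with a median of 9.71. High values occurred in each class, and all 3 ranges overlapped. It was listed at 0 in 1 major clone, 3 minor clones and 8 undivided tumours. The SD of its log2 level over undivided tumours, after centring within each mouse, was 3.50, above that of 99.9% of the 16511 genes tested there, for which the median SD was 0.48. Rspo3 (SD 2.09, above 97.7% of genes) and Myh11 (1.65, above 94.1%) followed, and Thy1 varied least of the tested members (0.60, above 60.6%).

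Whether the stroma cut out with the larger clone differed from that of the smaller clone was asked within tumours, with limma and the tumour as a block. None of the 8 members tested passed an adjusted p of 0.05, where 1.14% of 16428 genes did. All but Pdgfra were higher in major clones, where 51.8% of all genes were. Of the members, 6 were higher at an unadjusted p under 0.05, a level that 12.4% of all genes reached in that direction. The median log2 fold change was 0.55 for the 8 members and 0.01 for all genes. The member nearest to the threshold was Grem1.

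Grem1 was higher in the major clone of 15 of 20 tumours, equal in M19 (0 in both clones) and lower in F19, F20, F28 and F29. In F23 it was 810 normalised counts in the major and 16.7 in the minor clone, in M28 358 and 2.44, and in M22 165 and 0. In F27, the tumour with the highest levels, the clones were close (1387 and 1179). The reverse was seen in F20, with 9.77 in the major and 163 in the minor clone. The log2 fold change was 2.34 (SE 0.59, 95% interval 1.11 to 3.56, limma adjusted p = 0.0512). On the scale of log2(value + 1), the size of the change where a clone is at 0 depends on the added 1.

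The contractile genes came next. Myh11 ranged from 24.04 to 2094 normalised counts over major clones (median 225) and from 17.3 to 2185 over minor ones (median 125). The major clone had more of it in 16 of 20 tumours (log2 fold change 0.996, SE 0.31, limma adjusted p = 0.0754). For Des this held in 14 of 20 tumours, at medians of 318 and 202 (0.58, SE 0.24, limma adjusted p = 0.148). For Acta2 it held in 13 of 20, at medians of 686 and 446 (0.39, SE 0.19, limma adjusted p = 0.228). In each of the 3 genes the largest values of either clone class came from F23 and F27, and the major and minor ranges overlapped almost wholly.

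Vim had medians of 1571 normalised counts for major and 1003 for minor clones, with more in the major clone of 14 of 20 tumours (log2 fold change 0.53, SE 0.18, limma adjusted p = 0.0976). Pdgfrb (medians 302 and 253) was higher in 13 (0.60, SE 0.26, limma adjusted p = 0.176), and so was Thy1 (medians 91.7 and 62.9, log2 fold change 0.40, SE 0.18, limma adjusted p = 0.195). Pdgfra ran from 148 to 2004 normalised counts over major clones (median 854) and from 207 to 2546 over minor ones (median 839), with more in the major clone of 9 of 20 tumours. Its log2 fold change was -0.17 with a 95% interval of -0.73 to 0.39, and 8 tumours differed by more than 2-fold between their clones, in both directions. M28 had 2004 in the major and 207 in the minor clone, and M19 had 148 and 611. Of the genes left out of this test, Rspo3 had medians of 7.80 and 3.11 normalised counts, with more in the major clone of 14 of 20 tumours, and Fap of 4.06 and 2.89, with more in 12. Without the filter on low values, their log2 fold changes were 0.59 (SE 0.35, limma adjusted p = 0.402) and 0.35 (SE 0.30, limma adjusted p = 0.591).

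**Figure D2:**
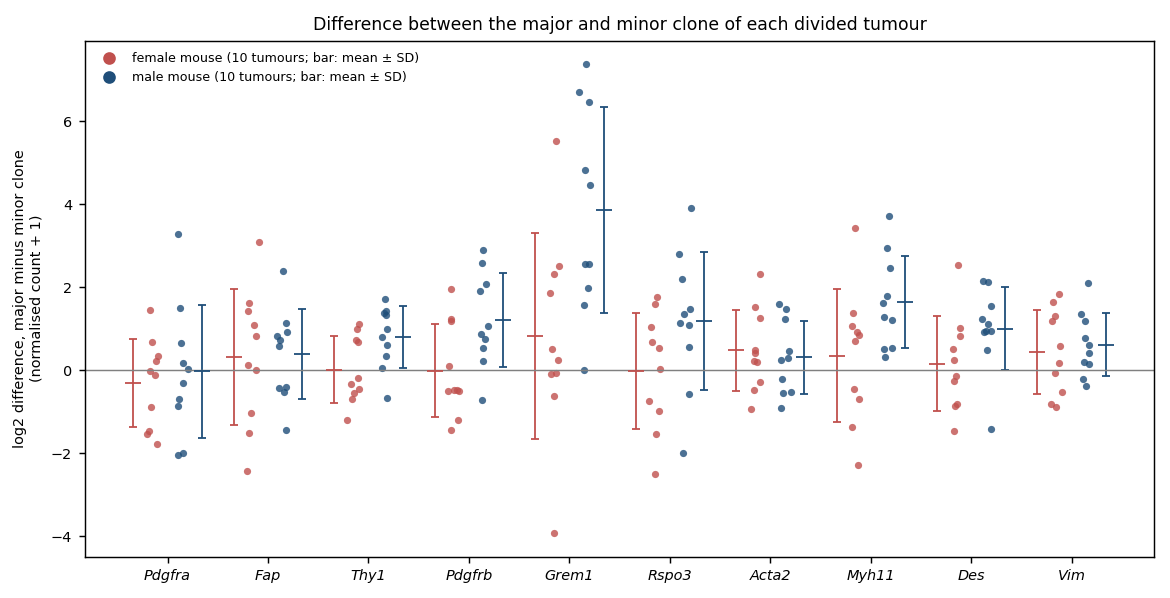
Log2 difference between the major and the minor clone (vertical axis) for each gene (horizontal axis), 1 dot a tumour, coloured by mouse, with the mean ± SD of the 10 tumours of each mouse. In the male mouse Grem1 differed by 3.85 ± 2.48 and Myh11 by 1.64 ± 1.12, and in the female mouse by 0.82 ± 2.47 and 0.35 ± 1.61.

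The signed difference, major minus minor, was higher in the male than in the female mouse for 7 of the 8 members (for Pdgfra, -0.03 and -0.31), though not by the test of that difference. In the male mouse alone, Grem1 was higher in 9 of 10 major clones (log2 fold change 3.85, limma adjusted p = 0.0478) and Myh11 in 10 of 10 (1.64, limma adjusted p = 0.0600). In the female mouse both were higher in 6 of 10 (0.82 and 0.35, limma adjusted p = 0.812 and 0.889). Pdgfrb and Thy1 were each higher in the major clone of 9 of 10 tumours of the male and 4 of 10 of the female mouse. The test of the difference between mice passed for no member and no gene (0% of 16428). At an unadjusted p under 0.05, which 7.65% of all genes reached, were Grem1 (female minus male -3.03, SE 1.02), Pdgfrb (-1.23, SE 0.47), Thy1 (-0.79, SE 0.34) and Myh11 (-1.29, SE 0.57), each at a limma adjusted p of 0.633. For Acta2, Vim and Pdgfra the difference between mice was within 0.28 on the log2 scale, with 95% intervals of -0.63 to 0.97, -0.94 to 0.60 and -1.43 to 0.88.

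The levels of each class were as follows. The median of Grem1 in the male mouse was 118 normalised counts over major clones and 3.84 over minor ones, against 80.5 and 35.1 in the female mouse. Pdgfrb had medians of 415 and 77.8 in the male and 252 and 282 in the female mouse, and Myh11 of 251 and 73.2 in the male and 199 and 206 in the female mouse. For these 3 genes, minor clones of the male mouse had the lowest median of the 4 combinations.

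Undivided tumours were then set against each clone class, with the mouse as a covariate. Both comparisons use the same 23 undivided tumours and are not independent. Against minor clones, none of 9 members tested passed, where 3.7% of 16491 genes did. Pdgfra was lower in undivided tumours, at 110 to 1201 normalised counts (median 523, log2 fold change -0.86, SE 0.29, limma adjusted p = 0.075), and Thy1 was higher, at 47.2 to 242 (median 97.3, log2 fold change 0.61, SE 0.22, limma adjusted p = 0.0995). Both were at an unadjusted p under 0.05, which 19.6% of all genes reached in either direction, and the other 7 had limma adjusted p-values of 0.459 or more. Against major clones, none of 9 passed, where 0.0121% of 16510 genes did. Grem1 (-2.69, SE 0.89, limma adjusted p = 0.278), Pdgfra (-0.70, SE 0.30, limma adjusted p = 0.366) and Pdgfrb (-0.79, SE 0.38, limma adjusted p = 0.406) were lower at an unadjusted p under 0.05, a level that 7.14% of genes reached in that direction. All members tested but Thy1 were lower in undivided tumours than in major clones (Thy1 0.18, 95% interval -0.22 to 0.58). Of all genes, 47.8% were higher in undivided tumours.

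**Figure D3:**
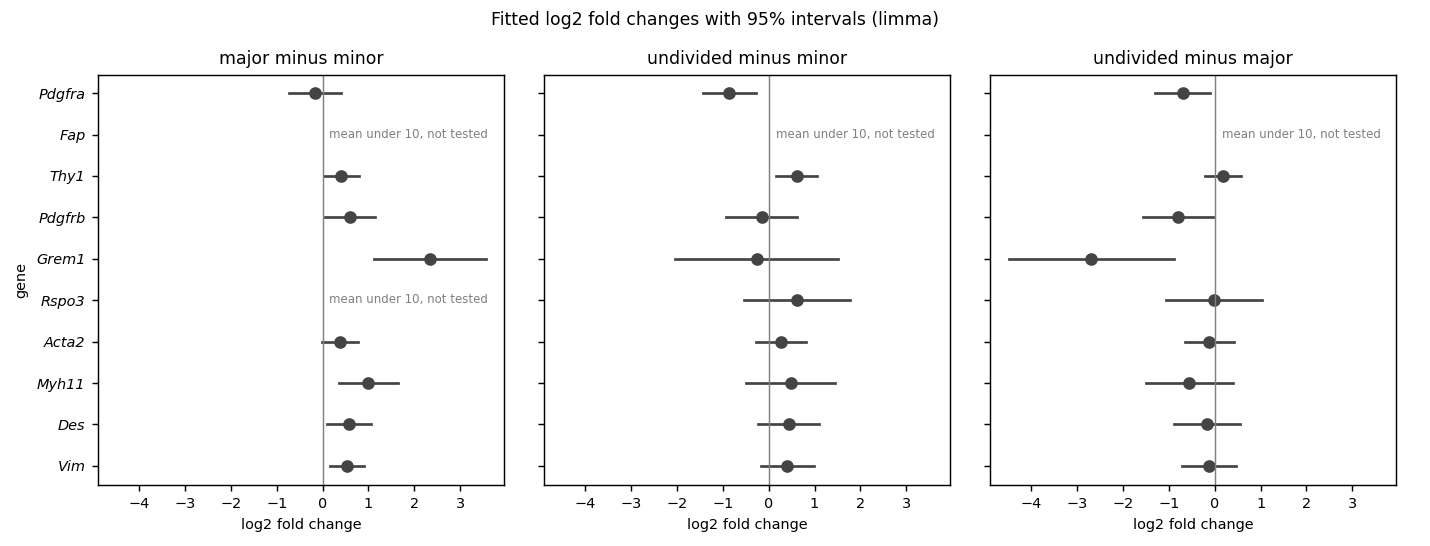
Log2 fold changes (horizontal axes) of the genes (vertical axis) fitted by limma in 3 comparisons, with 95% intervals as lines. Grem1 lies farthest from 0, at 2.34 with an interval of 1.11 to 3.56 in major against minor clones and at -2.69 in undivided tumours against major clones, and the interval of Pdgfra lies below 0 in both comparisons with undivided tumours.

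The undivided tumours M15, M17 and M18 of the male mouse combined the highest Rspo3 with no Grem1. Rspo3 was 120, 142 and 96.1 normalised counts in them, and at most 25.8 in the other 20 undivided tumours and 39.6 in any clone. Grem1 was listed at 0 in all 3. Their Acta2, at 886 to 1185, lay in the upper part of the range of the other undivided tumours (207 to 2284), whereas Pdgfrb, at 12.8 to 141, lay in the lower part (16.6 to 528). These are the undivided tumours with numbers above 10, and the labels record no other difference. The design text counts 20 monoclonal tumours, 3 fewer than the undivided libraries, and the tumours numbered 1 to 10 in each mouse are also 20. Whether they are the ones meant is not given in the sources used here. Without them, the undivided tumours differed from minor clones by -0.81 for Pdgfra (limma adjusted p = 0.0731) and 0.63 for Thy1 (limma adjusted p = 0.088), and from major clones by -2.15 for Grem1 (limma adjusted p = 0.393). Rspo3 then had a mean under 10 and was left out of the test.

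F3 had the highest Vim of all libraries, 11197 normalised counts against 2242 in the next tumour of its group and mouse. It also led the undivided tumours in Acta2 (2284), Myh11 (2283), Des (1518) and Pdgfrb (528), but not in Grem1 (364, behind 698 in M6 and 647 in M3). In the summed levels of smooth muscle genes (44934), pericyte genes (3126) and fibroblast matrix and markers (48899), F3 was also the highest of the undivided tumours.

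Segments of the small intestine were compared within undivided tumours (12 SI10, 11 SI20) and, by the mean of the 2 clones, in divided tumours (7 SI10, 10 SI20). No member passed in either, where 0.17% of 16511 and 0.28% of 16436 genes did. At an unadjusted p under 0.05 were none of the 9 members tested in undivided tumours (7.62% of all genes) and Thy1 alone of the 8 in divided ones (14.3%). Grem1 had a median of 1.41 normalised counts in SI10 and 23.3 in SI20 undivided tumours, listed at 0 in 6 of 12 and 2 of 11 (log2 fold change -2.001, SE 1.33, limma adjusted p = 0.735), and was also lower in SI10 of divided tumours (-1.28, SE 0.90, limma adjusted p = 0.491). In undivided tumours the direction of Grem1 held in the male mouse alone (-3.77, limma adjusted p = 0.502) and turned in the female mouse alone (0.29, limma adjusted p = 0.999), where Pdgfra, Pdgfrb, Acta2, Des and Vim also turned. Thy1 was higher in SI10 of divided tumours at an unadjusted p of 0.0287 (0.70, SE 0.29, limma adjusted p = 0.308) and 0.39 higher in undivided ones (SE 0.24, limma adjusted p = 0.717). The clone difference itself was not called different between segments for any member or gene (0% of 16436). Vim came closest, with a major minus minor difference of 0.02 ± 0.76 (SD, n = 7) in SI10 and 0.90 ± 0.75 (SD, n = 10) in SI20 and a limma adjusted p of 0.998, the single member at an unadjusted p under 0.05 (4.06% of all genes).

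Between the undivided tumours of the 2 mice, 19.1% of 16511 genes were called and none of the 9 members tested was, with Pdgfrb alone at an unadjusted p under 0.05 (33.3% of all genes). Pdgfrb (chr18:61178212-61218133 in GRCm39) was higher in the female mouse, with a median of 255 normalised counts against 141 (log2 fold change 1.12, SE 0.54, limma adjusted p = 0.147), and without M15, M17 and M18 the difference was 0.83 (limma adjusted p = 0.278). The endothelial list was also higher there: 5 of its 14 genes were called higher in the female mouse, as were 8.82% of all genes, none was called lower, and its median log2 difference was 1.09. Over all genes, 55.4% were higher in the female mouse (median 0.05). Of the 9 pericyte genes tested, all were higher in the female mouse and none was called (median 0.90), and of 36 fibroblast matrix genes and markers 29 were higher, 2 were called higher and 1 lower (median 0.74). The part of those cells in the difference of Pdgfrb was not tested.

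Across the 23 undivided tumours, 7 members (Pdgfra, Pdgfrb, Grem1, Myh11, Des, Acta2 and Vim) correlated with each other at an r of 0.45 to 0.94. Correlations are of log2 levels centred within each mouse, are across tumours that share libraries and scaling, and are given as a description. Myh11 and Des were the closest pair (r = 0.94), followed by Pdgfra and Pdgfrb (0.82), Acta2 and Vim (0.82) and Pdgfrb and Grem1 (0.81). Among the 36 pairs of the 9 members with a mean of at least 10, the median r was 0.57. Thy1 stood apart from them, at -0.33 with Pdgfra, 0.00 with Grem1 and at most 0.25 with any other of these members (Myh11). Fap, at its low counts, had no r above 0.23 (Pdgfrb). Rspo3 had an r of 0.66 with both Acta2 and Vim, 0.48 with Myh11 and 0.45 with Des, but 0.20 with Pdgfra, 0.12 with Pdgfrb and 0.08 with Grem1. The low values rest on M15, M17 and M18. In the 20 other tumours the r of Rspo3 was 0.62 with Grem1, 0.60 with Pdgfrb, 0.51 with Pdgfra and 0.78 with Myh11, and was 0.51 or more with each of the 7.

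Over the 20 differences between major and minor clones, Myh11 and Des again led (r = 0.88), and Myh11 went with Grem1 at 0.79, above its 0.66 in undivided tumours. Thy1, by contrast, had an r of 0.51 with Des, 0.52 with Pdgfrb and 0.50 with Myh11 here. Rspo3 had no r above 0.16 with any member other than Fap (0.44) and Thy1 (0.36), and Grem1 and Rspo3 had -0.07.

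**Figure D4:**
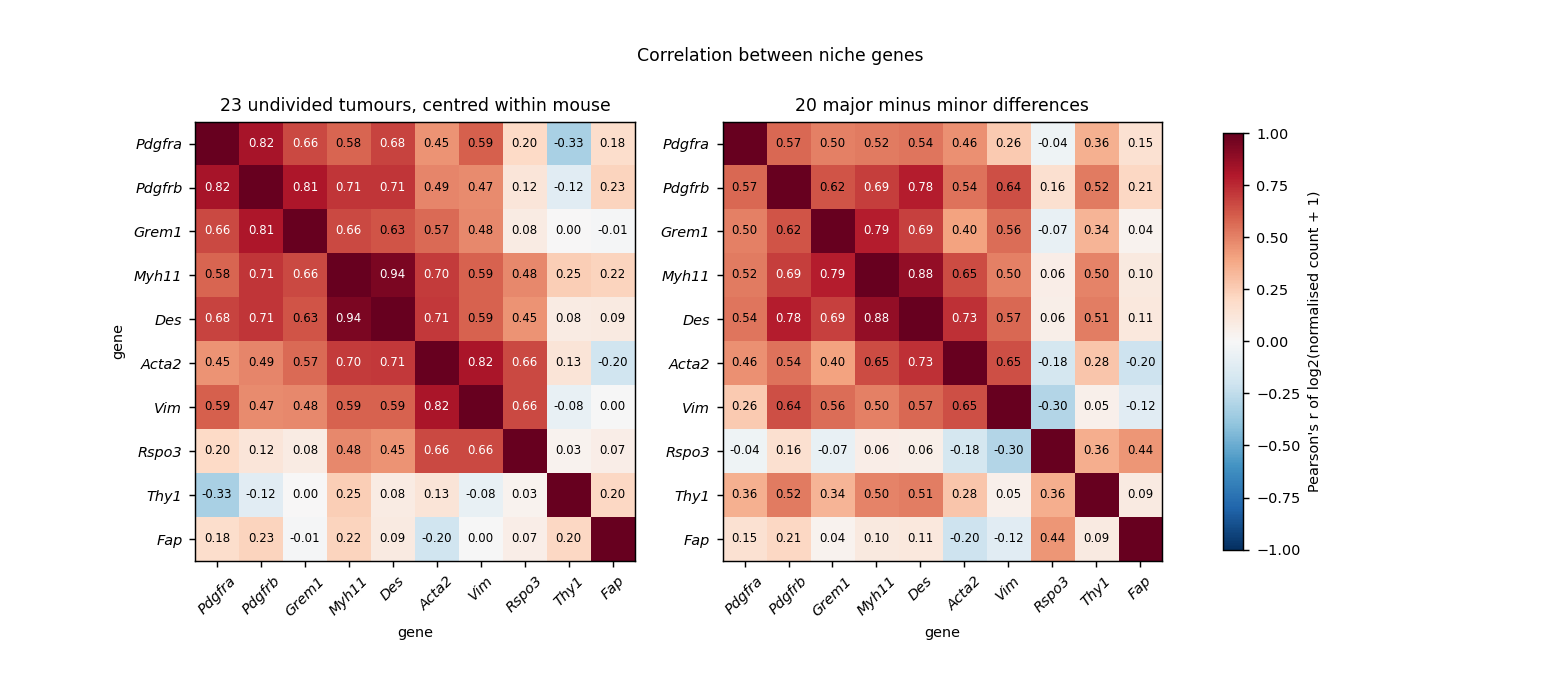
Pearson's r between the log2 levels of the 10 genes (both axes) over 23 undivided tumours centred within mouse (left) and over 20 major minus minor differences (right), with colour from -1 to 1. Myh11 and Des are the closest pair in both, at 0.94 and 0.88, and on the left Thy1 and Fap have no r above 0.25 with another gene, while Rspo3 runs from 0.08 with Grem1 to 0.66 with Acta2 and Vim. Without M15, M17 and M18, Rspo3 had 0.51 to 0.78 with the first 7 genes.

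The genes most like each member were taken as the 3 with the highest r over the undivided tumours, among all genes with a mean of at least 10. Pdgfra was nearest to the matrix genes Sparc (r = 0.94), Col6a2 (0.91) and Lamb1 (0.91). Pdgfrb was nearest to Igfbp7 (0.97), the fibrillar collagen Col5a2 (0.95) and the endothelial co-receptor Eng (0.95), and Grem1 to the matricellular protein Postn (0.91), the proteoglycan Dcn (0.90) and the endothelial receptor Procr (0.89). Myh11 was nearest to Des, the calponin Cnn1 (0.92) and the enteric smooth muscle actin Actg2 (0.88). Des was nearest to Myh11, Irag1 (0.92) and Synpo2 (0.90), and Acta2 to Vim, the actin-binding protein Tagln (0.81) and Klhl5 (0.79). Vim was nearest to Ift57 (0.84), Gpld1 (0.83) and Acta2 (0.82), and Rspo3 to Stac (0.88), Efemp1 (0.83) and Sgsh (0.83). Thy1 was nearest to genes of lymphocytes and other leukocytes, Sla2 (0.68) and Gpr65 (0.67), and to Snhg7os (0.66), and its r with the summed T cell list was 0.42, against -0.05 with fibroblast matrix and markers. Over the clone differences the order was the other way round, at 0.18 with T cells and 0.53 with fibroblast matrix and markers, and Thy1 had an r of -0.0063 with Sla2, 0.54 with Gpr65 and -0.16 with Snhg7os. The genes near Fap included 9930021J03Rik (0.82) and B4galnt2 (0.74). Over the clone differences these had r of 0.07 and -0.02 with Fap, whereas Igfbp7 had 0.93 with Pdgfrb.

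**Figure D5:**
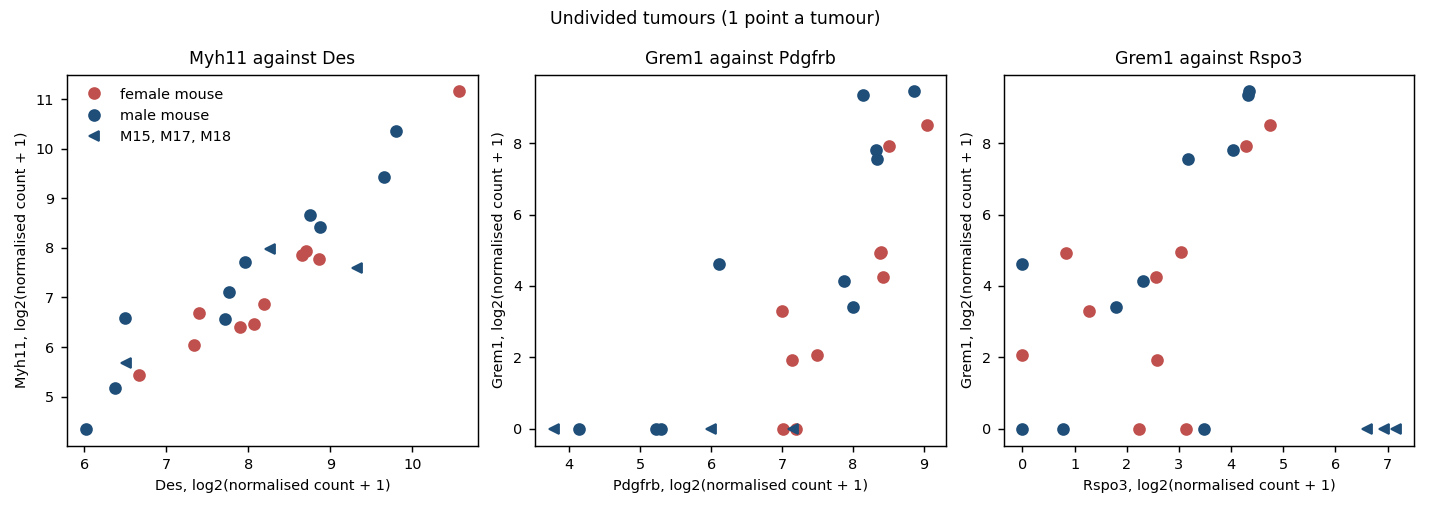
Log2(normalised count + 1) of Myh11 against Des, Grem1 against Pdgfrb and Grem1 against Rspo3 in the 23 undivided tumours, 1 point a tumour, coloured by mouse. Myh11 and Des lie along 1 line (r = 0.94), and M15, M17 and M18 (triangles) lie apart on the right with Rspo3 of 96.1 to 142 normalised counts and Grem1 at 0.

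Other genes of the same compartments were read beside the members in major against minor clones. Over all genes, 51.8% were higher in major clones, and 12.4% were higher at an unadjusted p under 0.05. Of the 36 tested genes of fibroblast matrix and fibroblast markers, 33 were higher in major clones and 21 of these reached an unadjusted p under 0.05, with a median log2 fold change of 0.55. None was called. The most abundant of the list were the alarmin Il33 (0.11, SE 0.13) and the matrix glycoprotein Fbln1 (0.14, SE 0.08). Of 24 smooth muscle contractile genes, 21 were higher, 13 of these at an unadjusted p under 0.05, with a median of 0.38. The most abundant, the tropomyosin Tpm1 (0.07, SE 0.06) and the myosin light chain Myl9 (-0.66, SE 0.30), were near or below 0, and the summed level of the list was higher in the major clone of 9 of 20 tumours. Of 31 ligands and antagonists of the niche, 20 were higher and 5 of these reached an unadjusted p under 0.05, close to the share of all genes, with a median of 0.22. The most abundant, Dkk3 and Tgfb1, were at -0.18 (SE 0.20) and 0.07 (SE 0.10). Of 11 transcription factors of fibroblasts and telocytes, 10 were higher, with a median of 0.18, Prrx1 at 0.50 (SE 0.20) and Osr2 at -0.03 (SE 0.18). Of 9 pericyte genes, 8 were higher, with a median of 0.29, Rgs5 at 0.29 (SE 0.19) and Mcam at 0.61 (SE 0.21). None of these genes was called either.

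Lists of other cells in the same samples were read in the same way, beside the 51.8% of all genes that were higher in major clones. In major against minor clones the median log2 fold change was 0.10 for 14 endothelial genes (8 higher), 0.35 for 16 leukocyte genes (15 higher), 0.01 for 11 T cell genes (6 higher), 0.16 for 5 genes of enteric neurons and glia (3 higher), 0.29 for 4 genes of interstitial cells of Cajal (3 higher), 0.14 for 4 mesothelial genes (all higher), 0.02 for 2 adipocyte genes (1 higher) and 0.13 for 13 epithelial genes (12 higher). The summed endothelial list, led by Cdh5 and Prox1, was higher in the major clone of 8 of 20 tumours and the summed T cell list, led by Trbc2 and Lck, in 9 of 20. Cdh5 (-0.54, SE 0.22) and Prox1 (-0.10, SE 0.12) were lower in major clones, though 8 of the 14 endothelial genes were higher. The medians of Cdh5 and Prox1 over major clones were 4583 and 4631, beside 13441 for the sum, which thus follows these 2 genes most. The difference of the endothelial sum between clones went with that of Grem1 at r = 0.57 and with that of Pdgfra at 0.69, and the sum ranged from 2742 to 20319 normalised counts in major, 3184 to 22568 in minor clones and 2041 to 19792 in undivided tumours. The summed pericyte list went with the difference of Pdgfrb at 0.86 and ranged from 386 to 2855, 417 to 3783 and 294 to 3126. Whether these sums follow the amount of the cells they are named for was not tested, nor was the part of these cells in the members' values. Among defining markers, the glial Sox10 was listed at 0 in 38 of 63 libraries, the mesothelial Wt1 in 49 and the B cell gene Ms4a1 in 36.

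In undivided tumours against minor clones, 11 of 12 tested T cell genes were higher, beside the difference in Thy1. Cd3e (0.94, SE 0.28, limma adjusted p = 0.0437) and Cd3g (0.83, SE 0.25, limma adjusted p = 0.0489) were the 2 called. The 2 of highest mean were not called: Trbc2 was lower (-0.25, SE 0.26) and Lck slightly higher (0.16, SE 0.18). The part of T cells in the difference of Thy1 was not tested. The T cell list summed to 562 to 2437 normalised counts in undivided tumours (median 1009) and 560 to 1421 in minor clones (median 797). Beside the lower Pdgfra, 11 of 36 fibroblast matrix genes were higher and 25 lower, with Fstl1 called lower (-0.89, SE 0.24, limma adjusted p = 0.0309). The mesenchymal transcription factor Prrx1 was called higher (0.98, SE 0.23, limma adjusted p = 0.0156). Its list of fibroblast and telocyte factors had 6 of 10 higher, a median of 0.03 and Osr2 at -1.955 (SE 0.86). Cdh5, a cadherin of endothelium, was called lower (-1.12, SE 0.33, limma adjusted p = 0.0473). It was the single called gene of the endothelial list, in which 5 of 14 genes were higher and the median was -0.22.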

How the data were processed

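RNA of 63 tumour libraries from 2 mice was sequenced from both ends after polyadenylated selection with a stranded kit. The authors trimmed reads with Trimmomatic 0.39, checked them with FastQC 0.11.9, STAR 2.7.7a and Picard 2.27.3, and estimated gene counts with Salmon 1.9.0 against Gencode M30 (GRCm39). What the authors deposited is 1 signal value for each gene and library, these estimates after scaling between libraries (normalised counts). The scaling is not given in the sources used here, though DESeq2 is named. All columns were used.

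Clones were classed as major or minor by the study's source data and paired by the tumour number of the sample title, which the 2 clones share. Across tumours, within mouse, a member's major and minor levels had r of -0.11 to 0.58. Genes with a mean of at least 10 were tested with limma 3.58.1 (R 4.3.3, eBayes with trend, two-sided) on log2(value + 1), with Benjamini-Hochberg adjustment over all genes and a threshold of 0.05. Paired clones were fitted with the tumour as a block, and comparisons with undivided tumours with the mouse as a covariate. Differences between mice or segments were tested on 1 difference per tumour. Tumours of 1 mouse are not independent animals, so p-values measure the spread between tumours. Intervals are 95%. The fits were tested on simulated data. Likeness is Pearson's r.

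Genes named are the 10 members, the 3 genes most like each over undivided tumours, and the 2 of highest mean in each list. Results of 3 further genes are not reported here. Named beyond this rule after their values were seen are Cd3e, Cd3g, Fstl1 and the markers listed at 0. Members and lists were chosen with earlier results of these data known. Positions and transcript lengths are from Gencode M39, which holds 24575 of the 24766 identifiers. Alternatives covered pseudocounts of 0.1 and 5, filters, quantile and same-sum scaling, no block, no trend, each mouse alone, segments and leaving out each tumour. Restricting undivided tumours to numbers 1 to 10 and leaving out F22 were chosen after seeing the data. Matplotlib 3.10.9 drew the figures.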

Additional observations from a re-analysis of the deposited data

Results flagged for a closer look

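Single values far from the rest were looked for in the 10 members within each group of 10 tumours of 1 mouse (50 such sets), with Dixon's ratio of the gap to the nearest value over the whole range on the log2(value + 1) scale, at its 95% level. Chance alone flags about 1 in 20 sets. In all, 5 sets were flagged. Of these, 3 were in F3, an undivided tumour of the female mouse, where Vim was 11197 normalised counts against 2242 in the next tumour, Myh11 2283 against 242, and Acta2 2284 against 916. Grem1 was listed at 0 in the major clone of M19, and its next lowest value among major clones of the male mouse was 18.6. Fap was listed at 0 in the minor clone of F24, with the next lowest of its set at 2.42. The undivided tumours of the male mouse, 13 in number, were not tested in this way.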

How the results depend on the processing

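No setting turned the direction of a value that had been called, since none of the members passed in any comparison. Which member stood nearest to the threshold depended on the setting. In major against minor clones the adjusted p of Grem1 ran from 0.0297 to 0.812 over 32 alternatives and was under 0.05 in 11. The count of members called rose from 0 to 1 (Grem1) with a pseudocount of 5, with a mean of at least 50, with quantile normalization, with libraries scaled to the same sum without Rn18s and in the male mouse alone. Leaving out 1 tumour at a time gave 0 to 2: Grem1 passed without F19, F20, F27, F28, F29 or M19 (adjusted p 0.0297 to 0.0494), and Myh11 also passed without F19 (0.0476) or F20 (0.0467). Without F22 the adjusted p of Grem1 was 0.0783. With no replicate block, as a check of the pairing by tumour, the adjusted p of Grem1 was 0.228 and 0 genes were called in place of 188, with 2.34 for its log2 fold change as before. The number of genes called was 25 without M20 and 859 without F19, 366 with quantile normalization, 601 with the same sum, 85 without a filter, 89 without trend, 42 without F22, 33 in the male mouse or in SI10 and SI20 tumours of 1 segment, and 0 in the female mouse. In undivided tumours against minor clones 1 member was called with the same sum without Rn18s (Pdgfra, adjusted p = 0.0451) and 1 when only the male mouse was fitted (Thy1, 0.0495), and leaving out 1 tumour gave 0 or 1 (Pdgfra, without the minor clone of M28 or without undivided M18). Leaving out 1 tumour or library moved the number of genes called between 274 and 959 there, 0 and 25 (without undivided M7; the median was 0) against major clones, 5 and 53 in segments of undivided tumours, and 13 and 215 in segments of divided ones. The adjusted p of Pdgfra ran from 0.0451 to 0.498 over 55 alternatives and that of Thy1 from 0.0495 to 0.862.

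Directions turned only for log2 differences that had not passed, and the cause was not tested. In the female mouse alone these were Pdgfrb in major against minor clones (-0.014), Myh11 (-0.55) and Des (-0.069) in undivided tumours against minor clones, Pdgfrb (0.29), Des (0.95), Vim (1.08), Pdgfra (0.27), Acta2 (0.92) and Grem1 (0.29) in SI10 against SI20 of undivided tumours, and Myh11 (0.015) and Pdgfra (0.035) in SI10 against SI20 of divided tumours. In the male mouse alone they were Grem1 in undivided tumours against minor clones (1.07), Rspo3 (0.43) and Acta2 (0.12) against major clones, Myh11 in segments of undivided tumours (-0.63), and Pdgfrb (-0.24) and Des (-0.080) in segments of divided ones. With undivided tumours 1 to 10 only they were Pdgfrb (0.0047) and Grem1 (0.18) against minor clones, Des between segments (0.16), and Acta2 (0.093) and Grem1 (-0.85) between mice. A pseudocount of 5 turned Grem1 against minor clones (0.05), Rspo3 against major clones (0.17) and Grem1 between mice (-0.20), and quantile normalization turned the last pair as well (0.19 and -0.43). Leaving out 1 tumour moved Grem1 in undivided tumours against minor clones between -0.54 and 0.011 and Rspo3 against major clones between -0.18 and 0.13. In segments of undivided tumours it moved Myh11 between -0.21 and 0.41, Des between -0.32 and 0.10 and Acta2 between -0.26 and 0.084. In segments of divided tumours it moved Myh11 between -0.53 and 0.063, Pdgfra between -0.34 and 0.094, Acta2 between -0.075 and 0.33, Des between -0.054 and 0.33 and Pdgfrb between -0.26 and 0.38. The median r between the 9 members other than Fap in undivided tumours was 0.57, and 0.58 with a pseudocount of 5, 0.53 by Spearman's rank and 0.70 in tumours 1 to 10. With Fap included these were 0.47, 0.45, 0.47 and 0.64.

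The precision rests on tumours of 2 mice, and read numbers behind the values of Grem1, Rspo3 and Fap near 0 are unknown. The stroma cut out with each clone was not measured apart from the tumour.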
